A study of Homo sapiens with 15 samples.

Results

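The 39 genes described here serve the entry into S phase and the copying of DNA. They were listed by symbol, and each was read from its brightest probe set, the one with the highest mean signal over the 15 arrays among those annotated to that symbol alone. All 39 had such a probe set and passed the filter on low signals, and they make up 39 of the 12868 genes tested. By role they comprised 10 origin licensing genes, 6 helicase activation genes, 5 genes of the sliding clamp and its loader, 7 of the polymerases, primase and flap nuclease, 3 of deoxynucleotide synthesis, 5 cyclins and E2F factors, and 3 of chromatin assembly and hemimethylated DNA binding.

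The cells were IMR32, an established human neuroblastoma line, transfected with a doxycycline-inducible gene for the homeodomain factor MSX1. Affymetrix arrays measured total RNA of 5 groups, with 3 arrays each. They were the start of the course (t = 0), doxycycline-treated cells sampled at t = 8, 24 and 48, called induced, and control cells kept without doxycycline to t = 48. All groups carried the inducible construct. The labels give no unit of time, do not name the promoter or say whether the line was 1 clone, and do not say whether replicates were separate cultures. A p-value here therefore reflects only how far these samples varied, and that variation may be technical. No doxycycline-treated cells without the construct were analysed here, so doxycycline and MSX1 cannot be told apart, and no control matched t = 8 or t = 24.

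Before a cell copies its genome, the origin recognition complex, CDC6 and CDT1 load the MCM2 to MCM7 ring onto each origin, a step called licensing. At the start of S phase CDC45 and the GINS complex join that ring to form the working helicase, after which DNA polymerase alpha with its primase starts each strand and polymerases delta and epsilon extend it, held on DNA by the PCNA ring that replication factor C loads. Many of these genes are switched on together by E2F factors, which the retinoblastoma protein restrains until cyclin D and cyclin E kinases phosphorylate it. Neuroblastoma lines such as IMR32 divide in culture and express this programme.

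MSX1 on its brighter probe set read 115.6, 121.5 and 95.5 at t = 0, between 140.1 and 184.1 in induced cells at t = 8, between 142.2 and 182.3 at t = 24, between 67.7 and 96.9 at t = 48, and between 46.5 and 55.5 in control cells. At t = 48 it was higher in induced than in control cells (log2 fold change 0.65, SE 0.15, limma adjusted p = 0.0163), although control signals lay below every t = 0 array and induced ones overlapped with t = 0. The fall in control cells against t = 0 was called (−1.05, limma adjusted p = 0.0050). Induced cells at t = 48 stood at −0.40 against t = 0 (adjusted p = 0.0775) and were called lower than at t = 24 (−0.96, adjusted p = 0.0021). Against t = 0 the brighter probe set was called higher at t = 24 (0.55, limma adjusted p = 0.0299). It did not pass at t = 8 (0.51, adjusted p = 0.128). The dimmer probe set of MSX1 overlapped between induced and control cells at t = 48. At t = 8 the dimmer one read 22.5, 23.6 and 23.5, below the t = 0 arrays at 24.3, 32.2 and 34.6. Whether either probe set reads the introduced gene, the cells' own transcript or both is not given in the sources used here. Summed signals of 10 sympathetic neuroblastoma markers ran from 12258 to 13445 at t = 0, 12935 to 13593 at t = 8 and 14170 to 14863 at t = 24. At t = 48 they ran from 13643 to 15296 in induced and from 12406 to 13070 in control cells. TH was not above the filter. Of the 9 that passed it, PHOX2A, HAND1, DDC and CHGA were higher in induced than in control cells at t = 48 and the other 5 stood below 0 with none called. The lowest was DBH at −0.96 (adjusted p = 0.167), with 48.8, 61.5 and 34.2 in induced and 94.4, 95 and 99.2 in control cells. At t = 0 DBH read 53.9, 36 and 49.6, which the induced arrays overlapped and the control ones all exceeded. Meanwhile 5 epithelial markers summed to at most 83 and 4 blood or endothelial markers to at most 77.7. The summed signal of 9 fibroblast markers also moved with the groups: 562 to 683 at t = 0, 835 to 863 at t = 8, 1202 to 1546 at t = 24, 846 to 1073 at t = 48, and 724 to 748 in control cells. Of the 8 that passed the filter, 3 were higher at t = 24 (COL1A1, COL3A1 and LUM) and 2 were higher against control (COL3A1 and LUM). The bacterial hybridisation control bioC was weak on induced t = 24 replicate 1 (122.2) and induced t = 48 replicate 3 (138.5), against 495.2 to 600.4 on the other arrays. At t = 48 the 3′ probe set for 18S ribosomal RNA gave 150.2 to 172.9 with induction and 76.7 to 94.9 without, while the 5′ one (82 to 178.1 against 69.1 to 91.3) and the middle one (101.5 to 198.7 against 72.5 to 103.9) overlapped. The highest 18S signals of all arrays were those of t = 0 replicate 3, at 646.5 (3′), 703.6 (5′) and 421.3 (middle). That array is part of every comparison against t = 0. The part of the marker and 18S signals in the results below was not tested. Without the arrays of weak bioC, 10 replication genes were lower than control at t = 48, against 12 with them. Against t = 0, 13 were then lower at t = 24 and 15 at t = 48, against 17 and 17. Of all 12868 genes, 789, 952 and 1851 were then called in either direction, in that order, against 1107, 1394 and 2333.

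Induction was followed by lower signals across most of the replication genes, seen at t = 24 and t = 48 and not at t = 8. At t = 24, 17 of the 39 fell against t = 0, led by CDC45, GINS1, E2F1, TYMS and POLA2, and none rose. Of all genes tested, 4.87% were lower and 5.96% higher in that comparison. At t = 48, 12 were lower in induced than in control cells, led by POLA2, MCM10, GINS4, POLD1 and CDC6, and none was higher. Here 3.29% of all genes tested were lower and 5.31% higher. The changes were modest: the median member stood at −0.30 (log2) at t = 24 and at −0.28 against control at t = 48, and the largest fitted fall of a called member in these comparisons was 39.1% (CDC45 at t = 24), on signals with an offset of 5.16 added before log2. In bulk RNA, fewer cells in S phase and less transcript per cell cannot be told apart.

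**Figure D1:**
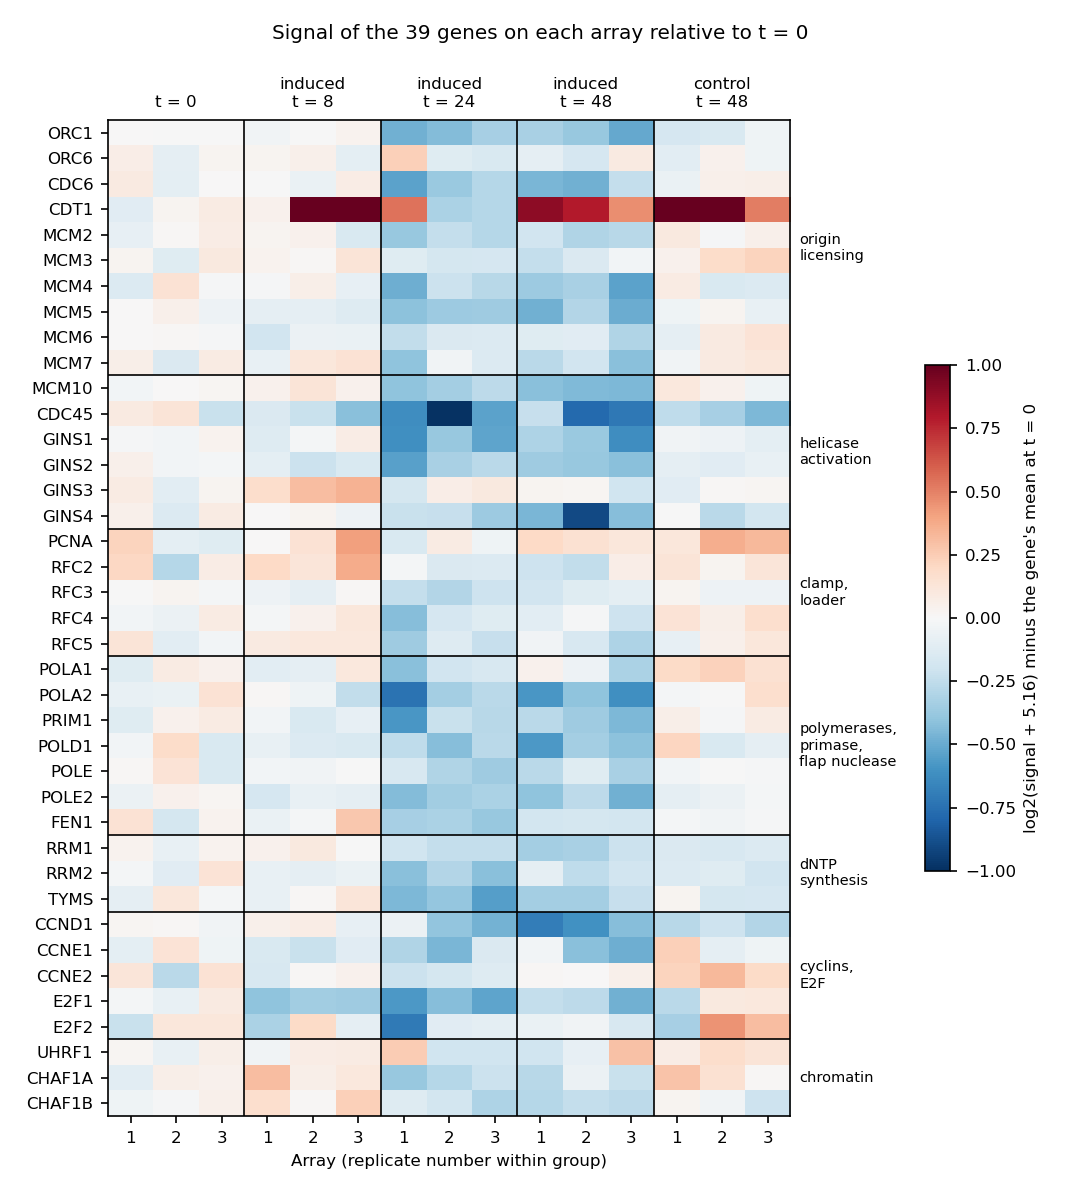
Log2 signal of each of the 39 genes (y axis, grouped by role) on each of the 15 arrays (x axis, grouped by condition), as the difference from the gene's mean at t = 0. Blue is lower and red is higher, and 4 of the 585 values lie beyond the ends of the scale at 1 in size and take the end colour. The induced t = 24 and t = 48 columns are mostly blue, while the t = 8 and control columns are mixed.

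On each array, the signals were compared with the gene's mean at t = 0. The median over the 39 genes was −0.38, −0.29 and −0.27 (log2) on the 3 induced t = 24 arrays and −0.24, −0.25 and −0.30 on the 3 induced t = 48 arrays. It was −0.03, 0.01 and 0.01 at t = 8 and −0.02, −0.01 and −0.01 in control cells. Thus 36, 37 and 38 of the 39 genes lay below their t = 0 mean at t = 24 and 34, 35 and 33 at t = 48, against 24, 18 and 19 at t = 8 and 21, 20 and 20 in control cells. Over all 12868 genes the share below the t = 0 mean stayed between 45.2% and 53.0% on every array.

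The comparison at t = 48 asked what induction changed at a matched time. Here 12 of 39 genes were lower and none was higher, where 3.29% of all genes tested were lower and 5.31% higher (limma, adjusted p of 0.05). Signals did not overlap between the groups, with induced cells lower, for 27 of the 39, against 15.4% of all genes. All 39 fold changes were below 0, from −0.58 for POLA2 to −0.02 for GINS3, against 52.1% of all genes, although quantile normalization turned ORC6 (0.023) and RRM2 (0.0035), and leaving out the arrays of weak bioC turned GINS3 (0.052). Each of these 3 also turned when single arrays were left out. Leaving out any array but induced replicate 1 moved the count by over 1.5 times: it was 2 without control replicate 3, 4 without control replicate 2, 6 without control replicate 1, 4 without induced replicate 2, 4 without induced replicate 3 and 10 without induced replicate 1. MCM5 and MCM10 passed in all of these. With each array centred on the median of all its probe sets 3 genes passed, and 7 passed with the replicate number as a block.

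Against t = 0, induced cells at t = 24 had 17 of 39 genes lower and none higher, where 4.87% of all genes tested were lower and 5.96% higher. The groups did not overlap for 29 of the 39 (15.4% of all genes). All 39 fold changes were below 0 (51.9% of all genes), although ORC6, CDT1, MCM6, GINS2, GINS3, PCNA, RFC2 and UHRF1 each turned under 1 or more alternatives, given in the closing section. The count was 11 without induced t = 24 replicate 1 or without t = 0 replicate 3. ORC1, MCM5, MCM10, GINS1, GINS2, POLE2, RRM2, TYMS and E2F1 passed whichever array was left out. With arrays centred on the median of all probe sets, 2 genes passed.

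Induced cells at t = 48 also had 17 of 39 genes lower than at t = 0, and none higher, where 8.20% of all genes were lower and 9.93% higher. The count was 11 without t = 0 replicate 2, and 7 with arrays centred on the median of all probe sets. Of the 17, 13 had also fallen at t = 24. The 5 that were not also lower than control cells at t = 48 were MCM4, CDC45, RRM1, TYMS and CCND1. These comparisons against t = 0 share the same 3 arrays, so their counts are not independent of each other.

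Neither the earliest time nor time in culture gave a call. At t = 8 no member passed limma's test (3 at an unadjusted p under 0.05), where 2.10% of all genes changed. Over all 12868 genes, 1280 had an unadjusted p under 0.05 there. In control cells at t = 48 none passed against t = 0 (4 unadjusted, and 1442 of all 12868 genes), where 0.847% of all genes changed. Between t = 8 and t = 24 in induced cells 11 members fell and none rose, where 2.84% of all genes fell and 3.46% rose: ORC1, CDC6, MCM5, MCM10, GINS1, FEN1, RRM1, RRM2, TYMS, CHAF1A and CHAF1B. That count was 5 to 7 when any 1 of the 6 arrays was left out: 5 without replicate 1 at either time, 6 without replicate 2 at either time, 7 without t = 8 replicate 3 and 6 without t = 24 replicate 3. Between t = 24 and t = 48 no member passed (4 unadjusted, and 1890 of all 12868 genes), where 4.04% of all genes changed. The median member moved by 0.01 (log2). Over the whole induced course, 23 of 39 changed by limma's F-test, where 20.2% of all genes did, and the largest difference from t = 0 came at t = 24 for 12 of them and at t = 48 for 11.

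**Figure D2:**
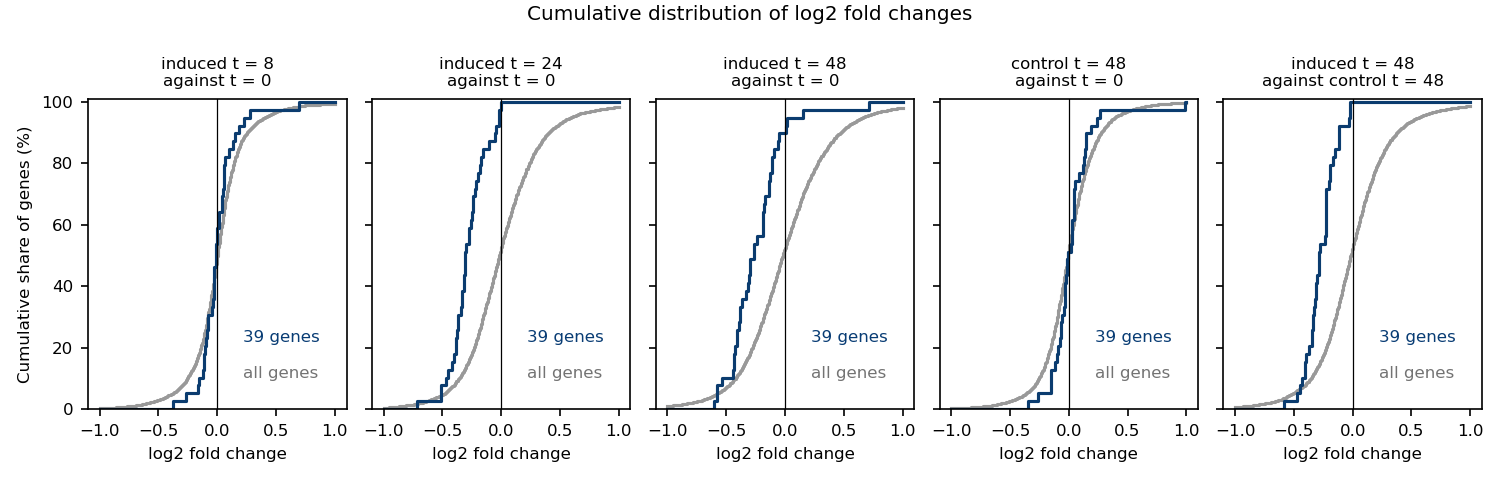
Cumulative share of genes (y axis, percent) against log2 fold change (x axis) in 5 comparisons, for the 39 replication genes (blue) and all 12868 genes tested (grey). The blue curve lies left of the grey one in the panels for induced t = 24 and t = 48, with member medians of −0.30 at t = 24 and −0.28 against control, and near it in the panels for induced t = 8 and control cells, where the medians are −0.01 and −0.01.

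The promoters of these genes are shown for what the list shares outside its signals. RefSeq promoters (GRCh38.p14, 250 bases before to 50 after the start) were held for 34 of the 39; MCM4, MCM5, GINS4, CCND1 and CCNE2 were not among them. An E2F motif, counted as TTTCCCGC, TTTCGCGC, TTTGCCGC or TTTGGCGC on either strand, occurred in 19 of the 34 (55.9%), in 552 of the 10417 promoters of tested genes (5.30%) and in 908 of all 27303 promoters (3.33%). It occurred in 9 of 17 promoters of members called lower at t = 24 against t = 0 or at t = 48 against control, and in 10 of 17 promoters of members called in neither, with no test of the difference. POLA2, GINS2, RFC3 and E2F1 fell, while MCM6, MCM7 and PCNA were not called on their brightest probe sets. The 80 bases around the motif follow in that order, with its letters in capitals. They lie at chr11:65261873-65261952 (plus strand) for POLA2, chr16:85688955-85689034 (minus) for GINS2, chr13:33818058-33818137 (plus) for RFC3, chr20:33686386-33686465 (minus) for E2F1, chr2:135876516-135876595 (minus) for MCM6, chr7:100101398-100101477 (minus) for MCM7 and chr20:5126638-5126717 (minus) for PCNA.
POLA2: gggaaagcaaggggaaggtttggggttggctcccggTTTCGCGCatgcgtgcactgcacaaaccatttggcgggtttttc
GINS2: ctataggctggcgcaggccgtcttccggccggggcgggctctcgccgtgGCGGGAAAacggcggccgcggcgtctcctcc
RFC3: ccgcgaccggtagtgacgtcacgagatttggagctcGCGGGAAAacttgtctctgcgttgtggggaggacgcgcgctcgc
E2F1: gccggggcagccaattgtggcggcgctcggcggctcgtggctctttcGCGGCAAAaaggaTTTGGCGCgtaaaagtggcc
MCM6: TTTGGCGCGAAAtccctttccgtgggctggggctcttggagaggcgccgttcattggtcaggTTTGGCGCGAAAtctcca
MCM7: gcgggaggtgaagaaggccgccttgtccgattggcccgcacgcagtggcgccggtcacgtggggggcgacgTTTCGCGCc
PCNA: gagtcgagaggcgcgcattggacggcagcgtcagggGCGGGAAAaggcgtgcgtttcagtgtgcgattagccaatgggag
In MCM6 each run of capitals holds a pair of overlapping matches, 1 on each strand, which gave 4 matches in the window. A match describes these letters and was not tested as a binding site.

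Among the licensing genes, ORC1, CDC6, MCM2 and MCM5 fell in both leading comparisons. ORC1, the largest subunit of the origin recognition complex, read 272.5, 270.7 and 271 at t = 0, 264.1, 270.5 and 277.6 at t = 8, and 241.6, 244.3 and 263.3 in control cells. In induced cells it read 193, 199.8 and 214.9 at t = 24 and 215.3, 208 and 188.8 at t = 48, below every other array. It fell at t = 24 (log2 fold change −0.41, SE 0.07, limma adjusted p = 0.00293) and against control (−0.29, SE 0.07, adjusted p = 0.0281).

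CDC6, the loader that brings the MCM ring to origins, read 414.6 to 473.1 over the t = 0, t = 8 and control arrays. At t = 24 it read 304.3, 342.1 and 364.4, and at t = 48 it read 322.5, 317.5 and 376.4. None of those 6 reached the lowest of the other 9. Its log2 fold change was −0.40 at t = 24 (adjusted p = 0.0168) and −0.40 against control (adjusted p = 0.0179). Its second probe set also passed at t = 24 (−0.39, adjusted p = 0.0199 in a fit over all 30676 probe sets that passed the filter), but not against control (−0.31, adjusted p = 0.059) or at t = 48 against t = 0 (−0.29, adjusted p = 0.0502).

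On their brightest probe sets, the 6 subunits of the MCM ring all stood below control at t = 48, without overlap. Only MCM2 (−0.31, adjusted p = 0.0294) and MCM5 (−0.39, adjusted p = 0.00476) passed the test there. MCM5 read 846, 878 and 814 at t = 0, 796, 796 and 771 at t = 8, and 823, 863 and 802 in control cells. It then read 636, 656 and 661 at t = 24 and 605, 689.9 and 599 at t = 48, and the induced later arrays overlapped with none of the earlier or control ones. MCM2 read 1604, 1766 and 1716 at t = 24 and 1828, 1691 and 1719 at t = 48, against 1877 to 2242 on the other 9 arrays. The remaining subunits gave −0.28 (MCM3), −0.34 (MCM4), −0.23 (MCM6) and −0.35 (MCM7) against control, with adjusted p from 0.0543 to 0.111. MCM4 fell against t = 0 at t = 48 (−0.41, adjusted p = 0.0196). On a second probe set MCM6 stood at 0.053 at t = 24, not called, so its direction there depends on the probe set. That probe set is far dimmer, with a mean signal of 47.7 against 2117 for the first.

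ORC6 and CDT1 departed from the other licensing genes. ORC6 stood at −0.01 at t = 24 and −0.02 against control, with its groups overlapping throughout. The array of weak bioC read highest in each group, at 1143.1 at t = 24 and 1032.4 at t = 48. The others read 891.6 and 871 at t = 24 and 907.4 and 860 at t = 48. Those others lay below all t = 0 arrays (910.6 to 1012.7). The part of the weak arrays in this was not tested. CDT1, whose product loads the MCM ring together with CDC6, had the largest SE of the members. It read 127, 141 and 147 at t = 0, 142, 290.1 and 284 at t = 8, 203, 110.2 and 112 at t = 24, 262, 243 and 192 at t = 48, and 364, 299 and 199.5 in control cells. All control and all induced t = 48 arrays were above all t = 0 arrays, yet neither difference passed (0.99, SE 0.30, adjusted p = 0.193 in control cells, and 0.72, adjusted p = 0.116 in induced cells). Its second, dimmer probe set was lower in induced than in control cells at t = 48 (−0.53, adjusted p = 0.0299). The first stood at −0.27 there and was not called. In induced cells at t = 48 against t = 0 the second stood at −0.31, not called, and did not follow the first.

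**Figure D3:**
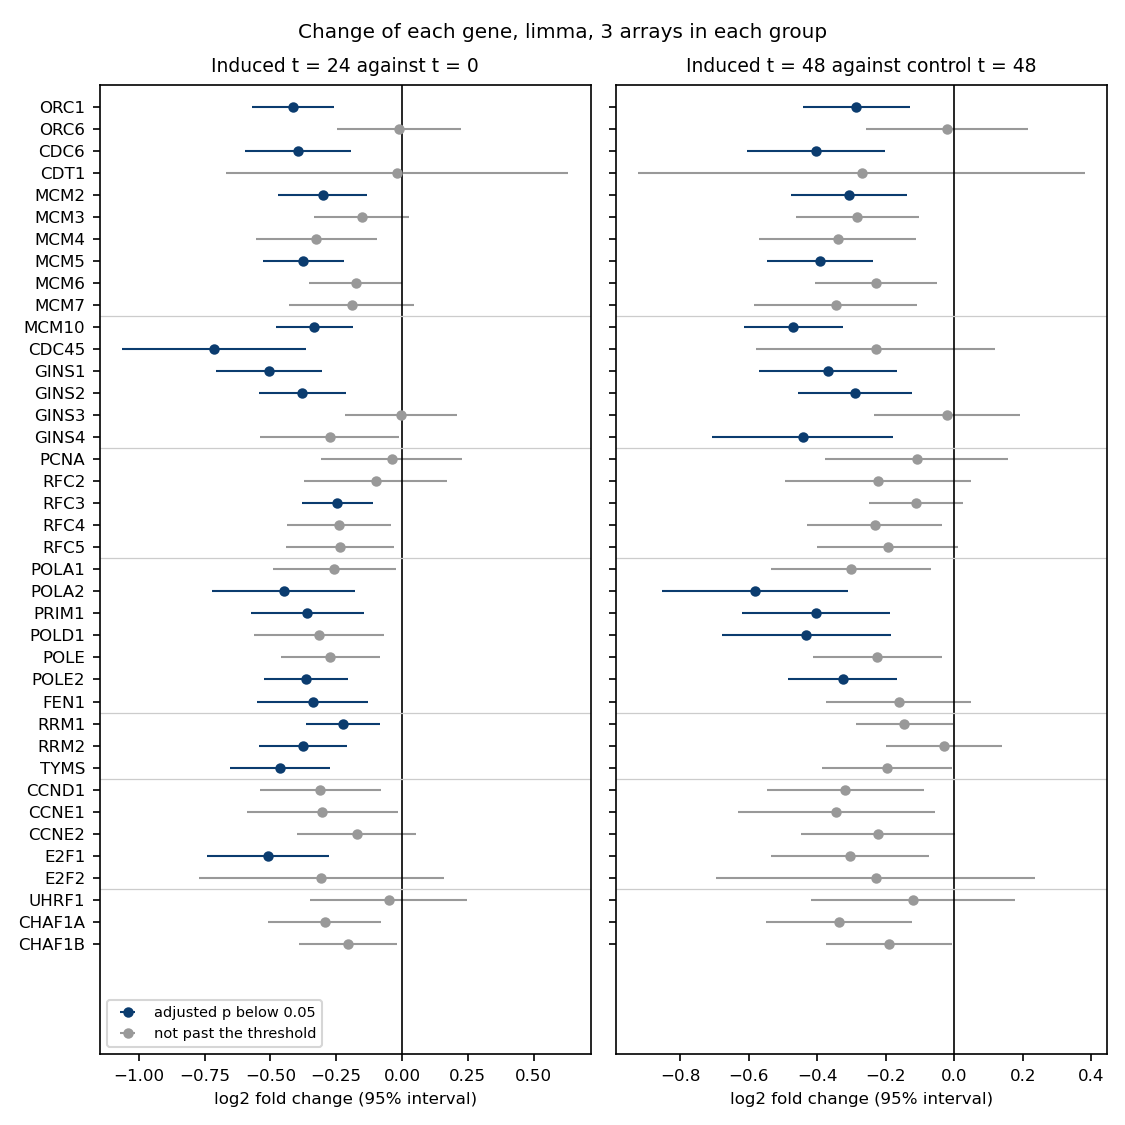
Log2 fold change of each of the 39 genes (y axis) at induced t = 24 against t = 0 (left) and at induced t = 48 against control (right), with 95% intervals from limma and blue points for adjusted p under 0.05. All points lie below 0 in both panels, and 17 are blue on the left and 12 on the right.

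Helicase activation was the role with the highest share of calls at t = 48, with 4 of 6 genes lower than control. MCM10, which binds the loaded ring and helps start unwinding, read 607, 619.9 and 626 at t = 0, 637, 674 and 635 at t = 8, and 666, 636 and 598 in control cells. It read 465, 488 and 516 at t = 24 and 461, 453 and 452 at t = 48. It had the smallest adjusted p of the 39 against control (−0.47, SE 0.07, adjusted p = 0.000818), a fall of 27.8%. Its other probe sets stood at −0.11 and −0.16 in that comparison and were not called.

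CDC45, which joins the MCM ring in the active helicase, had the largest fall of any member at t = 24. It read 488, 502 and 393 at t = 0 and 297, 228 and 315 at t = 24 (−0.71, SE 0.16, adjusted p = 0.0137). Control cells, which had no doxycycline, read 384, 363 and 335, below all t = 0 arrays, but this difference did not pass (−0.34, adjusted p = 0.454). Induced t = 8 arrays read 414, 392 and 342 and overlapped with t = 0. At t = 48 its induced signals of 389.7, 266 and 278 overlapped with control (−0.23, adjusted p = 0.421).

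The GINS complex has 4 subunits, and 3 of them fell. GINS1 read 1743 to 1823 at t = 0, 1625 to 1875 at t = 8 and 1657 to 1732 in control cells. In induced cells it read 1160.5, 1362 and 1234 at t = 24 (−0.51, SE 0.09, adjusted p = 0.00412) and 1430.5, 1376 and 1156 at t = 48 (−0.37 against control, adjusted p = 0.0283). GINS2 followed it with −0.38 at t = 24 and −0.29 against control, although its second probe set stood at 0.011 at t = 24. The mean signal of that probe set was 22.2, against 341 for the first and array medians of 18.1 to 22.6. GINS4 was called at t = 48 and not at t = 24: its t = 24 signals of 226, 226 and 205 did not pass (−0.27, adjusted p = 0.175), while those at t = 48 were 192, 139.7 and 196 against 264, 219.8 and 233 in control cells (−0.44, SE 0.12, adjusted p = 0.0418). GINS3 was not called, at −0.0040 and −0.02, and at t = 8 its 3 arrays (469, 516 and 531) were all above those of t = 0 (386 to 439.5), a difference that did not pass (0.28, adjusted p = 0.28).

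On the brightest probe sets, the polymerase alpha complex held the largest fall against control. POLA2, its regulatory B subunit, read 478, 479 and 554 at t = 0, 506, 488 and 423 at t = 8, and 497, 499.8 and 564 in control cells. It read 299.6, 396 and 415 at t = 24 and 334, 379 and 326 at t = 48, below all 9 of the others. It fell by 33.2% against control (−0.58, SE 0.13, adjusted p = 0.0128) and by 26.8% at t = 24 (−0.45, adjusted p = 0.0382). These values come from the brightest of its 3 probe sets. Over the alternatives of the closing section, its limma adjusted p reached 0.693 against control and 0.464 at t = 24. Its fold change against control ran from −0.65 to −0.26 over them. PRIM1, the catalytic primase subunit, fell as well (−0.40 against control, adjusted p = 0.0255, and −0.36 at t = 24, adjusted p = 0.0356). The catalytic subunit POLA1 was below control on every array, at 348, 327 and 270 against 387, 398 and 377, but did not pass (−0.30, adjusted p = 0.112).

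Of the elongating polymerases, POLE2, a small subunit of polymerase epsilon, fell at t = 24 (−0.36, adjusted p = 0.00714) and against control (−0.33, adjusted p = 0.0157). POLD1, the catalytic subunit of polymerase delta, read 187, 221 and 210.2 at t = 48 against 326, 252 and 264 in control cells (−0.43, SE 0.11, adjusted p = 0.0339), and its fall at t = 24 did not pass (−0.32, adjusted p = 0.0978). POLE, the catalytic subunit of polymerase epsilon, did not pass in either comparison (−0.27 and −0.23). FEN1, the nuclease that trims flaps between lagging strand fragments, was 962, 973 and 931 at t = 24 against 1338, 1069.7 and 1238 at t = 0 (−0.34, adjusted p = 0.0426), and was nearer to control at t = 48 (−0.16, adjusted p = 0.341). FEN1's second probe set was called in both comparisons, at −0.56 and −0.45.

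Of the clamp and its loader, 1 gene of 5 was called at t = 24 and none against control. PCNA, the sliding clamp, read 2231, 1787 and 1755 at t = 0, 1916, 2119 and 2544 at t = 8, 1717, 2026 and 1855 at t = 24, 2194, 2129.5 and 2073 at t = 48, and 2066, 2465 and 2392 in control cells. Its groups overlapped at t = 24 (−0.04, SE 0.12) and against control (−0.11, SE 0.12), and no comparison called it. The direction at t = 24 turned under quantile normalization (0.048). Among the 4 loader subunits, RFC3 alone was called, at t = 24, with 692, 664 and 708 against 812, 833 and 804 (−0.25, SE 0.06, adjusted p = 0.0251), and RFC2, RFC4 and RFC5 gave −0.10, −0.24 and −0.24.

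All 3 deoxynucleotide genes fell at t = 24 and none was called against control on its brightest probe set. All 3 also stood below 0 in control cells at t = 48 against t = 0 (median −0.15, none called). There RRM1 read 2054.8, 2022.2 and 2062.6 against 2326.8, 2155 and 2319.8. Control arrays of RRM2 were likewise below all t = 0 arrays, while those of TYMS overlapped with t = 0. TYMS, the thymidylate synthase, read 2242, 2579 and 2347 at t = 0, 2268, 2405 and 2591 at t = 8 and 1748, 1819 and 1624 at t = 24 (−0.46, SE 0.09, adjusted p = 0.0049). At t = 48 it read 1883, 1887 and 2037 in induced and 2431, 2111 and 2125 in control cells (−0.20, adjusted p = 0.197). RRM2, the regulated subunit of ribonucleotide reductase, read 1139, 1238 and 1135 at t = 24 against 1500.2, 1402 and 1669 at t = 0 (−0.38, adjusted p = 0.00846). By t = 48 its induced signals of 1425, 1276 and 1327 overlapped with those of control cells, at 1382, 1398 and 1331 (−0.03, SE 0.08). Between t = 24 and t = 48 the signal of RRM2 differed by 0.20 (adjusted p = 0.239) and that of TYMS by 0.16 (adjusted p = 0.444), so a return was not established by that test. RRM1, the large subunit, stood at −0.22 at t = 24 (adjusted p = 0.0447) and −0.15 against control (adjusted p = 0.2). In the fit over all probe sets, the second probe set of RRM1 was called against control (−0.52, adjusted p = 0.0482) and not at t = 24 (−0.38, adjusted p = 0.131). That of RRM2 stood at −0.29 against control (adjusted p = 0.0953), and against t = 0 at t = 48 it was called at −0.62 (adjusted p = 0.00135), where the first gave −0.18.

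**Figure D4:**
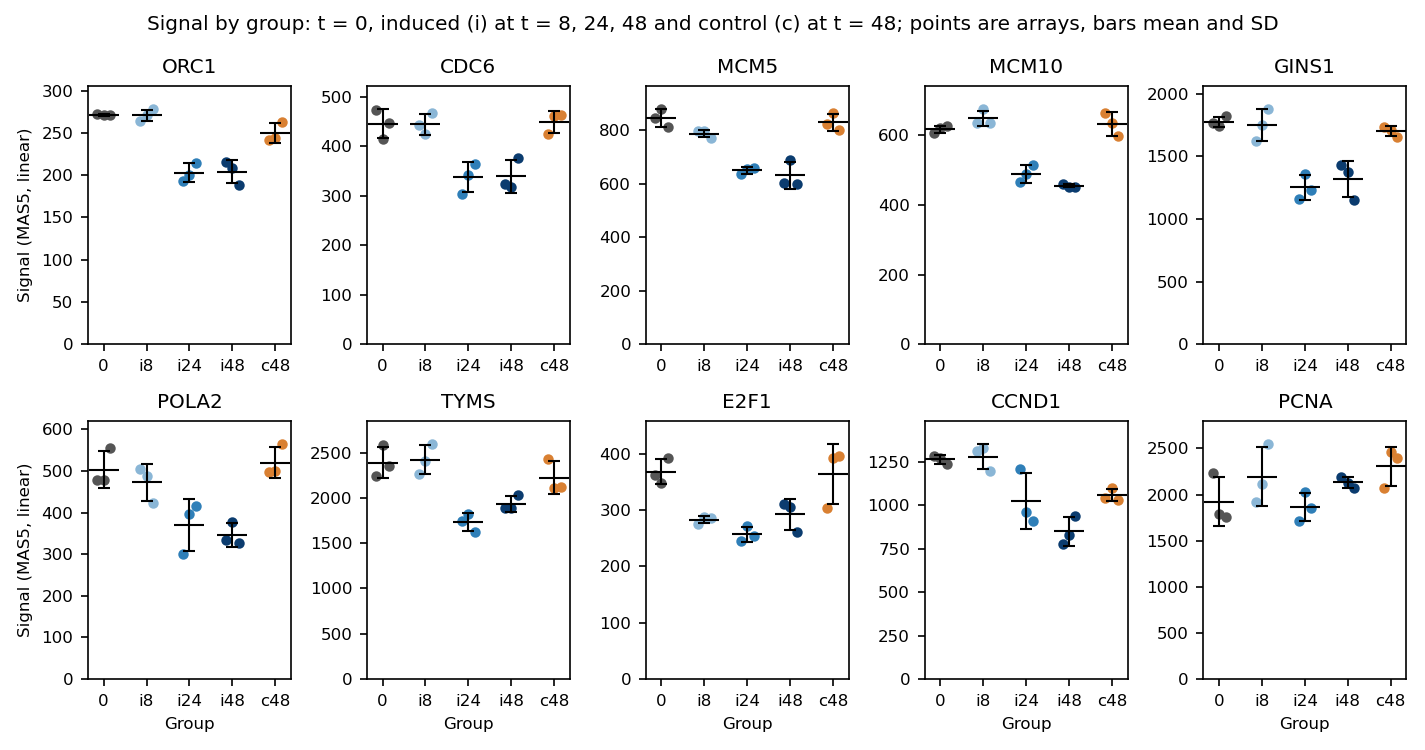
Deposited signal (y axis, linear, starting at 0) of selected replication genes in the 5 groups (x axis): points are arrays, and bars give the mean and SD of 3 arrays. MCM5, MCM10 and POLA2 sit lower in induced cells at t = 24 and t = 48 than in the other groups, while the groups of PCNA overlap.

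Among the cyclins and E2F factors, 1 gene was called at t = 24 and none against control. E2F1, the activator that drives many genes of this list, read 362, 348 and 392 at t = 0 and 245, 272 and 253 at t = 24 (−0.51, SE 0.11, adjusted p = 0.00903). At t = 8 it already read 276, 287 and 285, below all 3 arrays of t = 0, but this did not pass (−0.37, adjusted p = 0.131). Against control it overlapped at t = 48, with 310.1, 305 and 261 against 303, 392 and 396 (−0.31, adjusted p = 0.102). CCND1, which encodes cyclin D1, fell against t = 0 at t = 48 (−0.58, SE 0.11, adjusted p = 0.00286), with 779, 828 and 941 against 1283, 1274 and 1235. Control cells at 1042, 1097 and 1033 were also below all t = 0 arrays (−0.26, adjusted p = 0.374), and induced cells were below these (−0.32, adjusted p = 0.0867). CCNE1, CCNE2 and E2F2 were not called in any comparison. A second probe set of CCNE2 was lower at t = 24 (−0.48).

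Of the 3 genes for chromatin on new DNA, CHAF1A and CHAF1B encode chromatin assembly factor subunits and UHRF1 binds hemimethylated DNA. CHAF1A read 269.9, 288 and 302 at t = 24 and 289.5, 338 and 300.5 at t = 48, against 429, 392 and 356 in control cells (−0.34, SE 0.10, adjusted p = 0.0543). It fell between t = 8 and t = 24 (−0.45, adjusted p = 0.019), as did CHAF1B (−0.35, adjusted p = 0.0338). UHRF1 overlapped in both leading comparisons (−0.05 and −0.12). Its 3 induced t = 24 arrays read 1697, 1235 and 1235, and those at t = 48 read 1238, 1346 and 1748, so that in each group the array with the weak bioC control stood above the others.

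The same directions were mostly seen on the other probe sets. For the 24 members with several probe sets there were 38 others, of which 33 passed the filter. Of these 33, 31 were below 0 at t = 24 (median −0.38, 9 called lower) and 30 were below 0 against control (median −0.27, 5 called lower), and none was called higher. They measure the same RNA on the same arrays and add no samples.

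Genes of the same pathways outside the list were also called lower. The shares over all genes tested were 4.87% lower and 5.96% higher at t = 24, and 3.29% lower and 5.31% higher against control. Of 24 RB-E2F pathway and G1 kinase genes, 8 were lower and 1 higher at t = 24, and 4 were lower against control. CDC25A, the phosphatase that activates G1-S kinases, was lower by t = 8: it read 430.5, 398.2 and 400.1 at t = 0, 297, 287.7 and 264.6 at t = 8 and 220.1, 205 and 210.7 at t = 24, with log2 fold changes of −0.53 (adjusted p = 0.0054) and −0.93 (adjusted p = 2.3e-05). CDK6, a cyclin D kinase, was also lower at t = 8, at 981.3, 976.5 and 876.6 against 1391.3, 1433.8 and 1408 (−0.58, adjusted p = 0.000623). Both were called at t = 8, when 2.10% of all genes were called and none of the 39 replication genes was. With so low a share over all genes, no call among 39 does not set an order between them. At t = 24 CKS1B (−0.54) fell and TFDP2, a partner of E2F factors, rose (0.61), and E2F7 was lower against control (−0.28).

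Of 20 further licensing, firing and checkpoint genes, 3 fell at t = 24 (4.87% of all genes) and 4 were lower against control (3.29% of all genes), including TICRR, which helps load CDC45 (−0.51 and −0.60), and the checkpoint kinase CHEK1 (−0.35 and −0.41). DTL fell at t = 24 (−0.36), and TIPIN (−0.38) and TIMELESS (−0.32) were lower against control. Of 20 further fork genes, 5 fell in each comparison, among them DSCC1 (−0.46) at t = 24 and the polymerase epsilon subunit POLE4 (−0.43) and RNASEH2A (−0.41) against control. Of 12 nucleotide synthesis genes, 3 fell at t = 24 and 2 against control, with thymidine kinase TK1 in both (−0.52 and −0.34). Of 10 replication-coupled chromatin genes, 2 fell at t = 24 and 3 against control, with the histone chaperones ASF1A (−0.62 and −0.53) and ASF1B (−0.58 and −0.53) in both. No gene of these 4 lists rose in either comparison.

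Among 6 kinase inhibitor genes, CDKN1C was called higher at t = 8, at t = 24 and against control, and no other was called higher in these comparisons. CDKN1C encodes p57, an inhibitor of G1 cyclin kinases, and read 157.5, 157.3 and 155.3 at t = 0 and 163.7, 156.4 and 147 in control cells. In induced cells it read 464.2, 502.2 and 404.7 at t = 8, 622, 721.5 and 692.6 at t = 24, and 470.3, 441.9 and 425.7 at t = 48. The rise was 1.51 at t = 8 (adjusted p = 4.49e-06), 2.08 at t = 24 (adjusted p = 4.27e-08) and 1.49 against control (adjusted p = 9.46e-07). CDKN1B, encoding p27, was above every t = 0 array (760.1 to 974.4) at all 3 induced times, but did not pass. It read 1069 to 1230.7, 1029.4 to 1054.5 and 1005.8 to 1025.2 (0.40, 0.24 and 0.20, adjusted p = 0.0771, 0.16 and 0.198). Its control arrays at t = 48 read 851.7, 979.3 and 1031.9 and overlapped with the induced ones of that time. CDKN1A, encoding p21, fell at t = 24 (−0.56, adjusted p = 0.0172), and control cells stood at −0.46 against t = 0 (adjusted p = 0.165). CDKN3, a phosphatase of cyclin-dependent kinases, was lower against control (−0.49, adjusted p = 0.0161).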

How the data were processed

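RNA of 15 IMR32 samples was hybridised to Affymetrix arrays. The deposited values are linear intensities. Per the submitters' processing notes, GCOS and its MAS5 algorithm made them, with no version or setting given. The trimmed mean of each array was 100.01, so arrays had been scaled as a whole. Of 54675 probe sets, 62 were controls, 41091 had 1 gene symbol in the platform annotation, 1801 had several and 11721 were not listed there. Through Entrez identifiers, 41037 of the 41091 were found in RefSeq's GRCh38.p14 table. The arrays' own build is not given in the sources used here.

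The offset 5.16, the mean lower quartile of signal, was added before log2, so fold changes of low genes are understated. Genes needed 3 or more of the 15 arrays with a signal at or above that array's median, which left 12868 of 19775 genes. The tests were two-sided and used limma 3.58.1 (lmFit, then eBayes; R 4.3.3) with 5 group means and all 15 arrays in 1 fit, and p-values were adjusted by Benjamini-Hochberg over the 12868 genes, with a threshold of 0.05. An F-test covered t = 8, 24 and 48 against t = 0. The fit was tested on simulated data. Precision is limited by the number of arrays. Figures were drawn with matplotlib 3.10.9.

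The 39 genes, the other lists and the comparisons were chosen with earlier results of these data known. Of each other list, up to 4 called genes with the largest log2 fold change at t = 24 against t = 0 and at t = 48 against control are eligible to be named. Alternatives changed the offset, scaling, filter, probe set, variance model, arrays in the fit, block and threshold, and left out arrays. Centring on the median of the tested genes was chosen after seeing the data.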

Additional observations from a re-analysis of the deposited data

Results flagged for a closer look

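For 12 of the 39 genes, the change from t = 0 to t = 48 differed between induced and control cells by the test of that difference itself, which equals the comparison of induced with control cells (limma, Benjamini-Hochberg over 12868 genes, 3 arrays in each group). All 12 were lower in induced cells, where 3.29% of all genes were called lower and 5.31% higher, and the count was 2 to 10 with 1 array left out. In licensing, the induced and control changes were −0.40 and −0.12 for ORC1 (difference −0.29, adjusted p = 0.0281), −0.39 and 0.02 for CDC6 (−0.40, adjusted p = 0.0179), −0.26 and 0.05 for MCM2 (−0.31, adjusted p = 0.0294), and −0.42 and −0.03 for MCM5 (−0.39, adjusted p = 0.00476). In helicase activation they were −0.43 and 0.03 for MCM10 (−0.47, adjusted p = 0.000818), −0.43 and −0.06 for GINS1 (−0.37, adjusted p = 0.0283), −0.38 and −0.09 for GINS2 (−0.29, adjusted p = 0.0342), and −0.60 and −0.15 for GINS4 (−0.44, adjusted p = 0.0418). Among polymerase genes they were −0.53 and 0.05 for POLA2 (−0.58, adjusted p = 0.0128), −0.36 and 0.04 for PRIM1 (−0.40, adjusted p = 0.0255), −0.44 and −0.01 for POLD1 (−0.43, adjusted p = 0.0339), and −0.38 and −0.06 for POLE2 (−0.33, adjusted p = 0.0157). On each of the 12, all 3 induced arrays read lower than all 3 control arrays, a description of the same signals that the test used. For MCM5 and MCM10 the difference passed whichever array was left out.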

How the results depend on the processing

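Offsets of 1 and 16 changed no count by over 1.5 times, and no alternative called a member higher except fitting only the groups compared at t = 48 against t = 0. For induced against control cells at t = 48 (12 lower), 3 passed with arrays centred on the median of all probe sets, 5 with no filter, 6 of 38 on the second probe set, 7 with the replicate block, 2 in a fit of only those groups and 2 at an adjusted p of 0.01. For t = 24 against t = 0 (17), these were 2 with centring, 11 with no filter, 2 with only those groups and 9 at 0.01. For t = 48 against t = 0 (17), they were 7 with centring, 7 with only those groups (6 lower, 1 higher) and 9 at 0.01. For t = 24 against t = 8 (11), they were 1 with centring, 18 with centring on the tested genes, 5 with no filter, 17 with an intensity trend, 6 with the replicate block, 6 without the weakly hybridised pair of arrays, 0 with only those groups and 4 at 0.01. Over the time course (23), they were 10 with centring, 13 with no filter, 15 on the second probe set, 14 without the weakly hybridised pair and 11 at 0.01. The cause of these changes was not tested. With centring on the tested genes, added after seeing the data, 17, 23 and 22 passed in the first 3 comparisons. Leaving out 1 array gave 2 to 10, 11 to 14, 11 to 16, 5 to 7 and 18 to 22 for these 5 counts, and 0 to 0 for the other comparisons.

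Replicate numbers did not pair the samples: over 30 same-numbered pairs the correlation of deviations ran from −0.28 to 0.21, and 4 of 15 arrays correlated best with their own number. Of all pairs between groups, the arrays of weak bioC, induced t = 24 replicate 1 and induced t = 48 replicate 3, correlated most (0.37). The cause of this was not tested. Except for the 2 counts above, the replicate block moved no count by over 1.5 times.

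Of 2012 recomputed fold changes of single members, 30 turned in sign, 1 of them for a called gene. At t = 48 against control, quantile normalization turned ORC6 (0.023) and RRM2 (0.0035), and leaving out the weakly hybridised arrays turned GINS3 (0.052). At t = 24, quantile normalization turned ORC6 (0.046), PCNA (0.048) and UHRF1 (0.011), the second probe set turned MCM6 (0.053) and the called GINS2 (0.011), and leaving out those arrays turned GINS3 (0.083) and PCNA (0.019). With 1 array left out, values against control reached −0.096 to 0.035 for ORC6, −0.074 to 0.0053 for RRM2 and −0.065 to 0.052 for GINS3. At t = 24 they reached −0.14 to 0.059 for ORC6, −0.10 to 0.072 for PCNA, −0.20 to 0.025 for UHRF1, −0.056 to 0.083 for GINS3, −0.24 to 0.0036 for RFC2 and −0.30 to 0.13 for CDT1.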

Other observations

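Other promoter motifs were counted in the same windows, on both strands, with no test. The NF-Y box CCAAT, a motif common in cell cycle promoters, occurred in 20 of the 34 member promoters (58.8%), against 36.9% of the promoters of tested genes. The CHR element, counted as TTTGAA or TTCGAA and known from genes that peak later in the cycle, occurred in 2 of the 34 (5.88%), against 11.3%. The E-box CACGTG occurred in 4 of the 34 (11.8%), against 10.4%. The MSX core TAATTG occurred in 0 of the 34, against 4.20% of the promoters of tested genes, which says only that these letters are not in this window.

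CCAAT occurred in 10 of 17 promoters of members called lower at t = 24 against t = 0 or at t = 48 against control, and in 10 of 17 of members called in neither. The E-box occurred in 2 of 17 in each.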
